A study of Homo sapiens with 6 samples.

Results

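The insulin-like growth factor (IGF) family examined here consisted of 10 genes, chosen by name: the ligands Igf1 and Igf2, the receptors Igf1r and Igf2r, and the binding proteins Igfbp2, Igfbp3, Igfbp4, Igfbp5, Igfbp6 and Igfbp7. All 10 were found by exact symbol among the 22989 genes of the count table. By the study's account, RNA was sequenced from paclitaxel (PTX)-resistant cells of MDA-MB-231, an established human triple-negative breast cancer line. These cells were sorted as breast cancer stem cells (BCSC) for high aldehyde dehydrogenase activity. The comparison was between 3 libraries with knockdown of the long non-coding RNA LINC00115, called LINC00115 KD, and 3 libraries called WT, and the study made it to learn how LINC00115 acts on BCSC properties. All 6 libraries share the PTX resistance and the stem cell sort. The study knocked LINC00115 down with short hairpin RNAs (shRNAs). The KD samples are described as sh115-1 to sh115-3 and titled as replicates 1 to 3, whereas the paper uses sh115-1 and sh115-2 as names of hairpins and gives sh115-2 for its RNA-seq comparison. The labels do not say whether the WT cells carried a control shRNA, so an effect of the hairpin vector cannot be told apart from that of the knockdown. The labels also do not say that the libraries came from separate cultures, so the p-values measure only the spread between these libraries.

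IGF-1 and IGF-2 are small secreted hormones related to insulin. Both activate the IGF-1 receptor, a tyrosine kinase that passes the signal through the adaptors IRS1, IRS2 and SHC1 to the PI3K and MAPK pathways, and that can pair with the closely related insulin receptor. The IGF-2 receptor carries no kinase: it removes IGF-2 from the cell surface and, as the cation-independent mannose 6-phosphate receptor, brings newly made enzymes to lysosomes. The secreted IGF binding proteins hold the hormones outside the cell and so store them, prolong their life or keep them from the receptor. In breast cancer, IGF signaling is known for promoting growth, survival and resistance to therapy.

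The library totals lay between 36979221 and 38799331 counts, and 13497 genes passed the filter on low counts and were tested. A count of 0 allows up to 3 counts, which is between 0.0776 and 0.0817 CPM (counts scaled to a library size of 1e+06) in these libraries and covers counting error only. Although the labels give human cells, the genes carry mouse-style symbols, 4648 of them Gm names and 1135 Rik names. Only 16 of the 22989 equal a human symbol as written, and 14422 do so apart from case. Gm and Rik names belong to mouse annotation, so the names and the labels disagree on the species. Which species the reads came from was not tested. None of the 22989 is named LINC00115, so the knockdown could not be checked here, and every direction below rests on the labels. Among the stem cell markers, Cd44 and Itga6 had the most counts, with means of 911 and 616 normalised CPM in WT. Aldh1a1 and Aldh1a3, the listed genes of the enzyme family used for the sort, were low. Aldh1a1 had 8 to 17 counts in WT and 39 to 52 in KD, and Aldh1a3 had 4 at most. Other genes of that enzyme family were not on the list. Of 10 stem cell markers, 8 were in the table. Of these, 1 (Aldh1a1) was higher in each KD library with over 3 counts there, the minimum used for all marker counts here. Higher in each WT library were 2, Cd24a (279 CPM on average in WT and 155 in KD) and Itga6 (616 and 454). The groups overlapped in Cd44 (911 and 879). The list's sums were 1771 to 1861 CPM in WT and 1485 to 1494 in KD. Beside such marker counts, the groups were apart with KD higher in 37.8% of all genes tested, and with WT higher in 37.8%. Of 8 epithelial markers, 5 were higher in each KD library, with sums of 599 to 609 CPM in WT and 959 to 1009 in KD, led by Krt8 and Krt18. Of 8 mesenchymal markers, 3 were higher in each KD library and 2 in each WT library, with sums of 6156 to 6330 CPM in WT and 5784 to 5969 in KD, led by Vim and Fn1. Markers of other tissues moved with the groups. All 10 lung markers lay higher in each KD library than in any WT library, with a summed level of 1.59 to 1.98 CPM in WT and 74.5 to 86.2 CPM in KD, led by Scgb1a1 and Sftpc. Of 10 kidney markers, 7 were, and 1 (Cubn) lay lower, with sums of 9.37 to 9.80 and 24.4 to 28.5 CPM. WT replicate 3 stood apart in the basal keratins, with 92 counts of Krt5 where the other libraries had 0, and 192 of Krt14 where they had 7 to 31.

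The family was represented by its receptors and by part of its binding proteins, and not by its hormones. Of the 10 members, 7 passed the low-count filter. Of these, Igf1r, Igf2r, Igfbp4 and Igfbp7 fell in the KD libraries in the quasi-likelihood test of edgeR (adjusted p under 0.05), Igfbp3 rose, and Igfbp5 and Igfbp6 did not pass. Igfbp3 passed the filter only through the KD libraries and therefore had to differ, so its p is not used as support. Of the other 6 members tested, 4 passed, where 73.4% of all genes tested did, so that the share was near the background. A gene is named as called below where its fold change was also over 2. By this rule 0 of the 6 members tested other than Igfbp3 were called. Of all genes tested, 10.2% were called higher and 9.98% lower, 20.2% together. Igfbp3 also met the rule, as higher, but through the p that is not used as support.

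**Figure D1:**
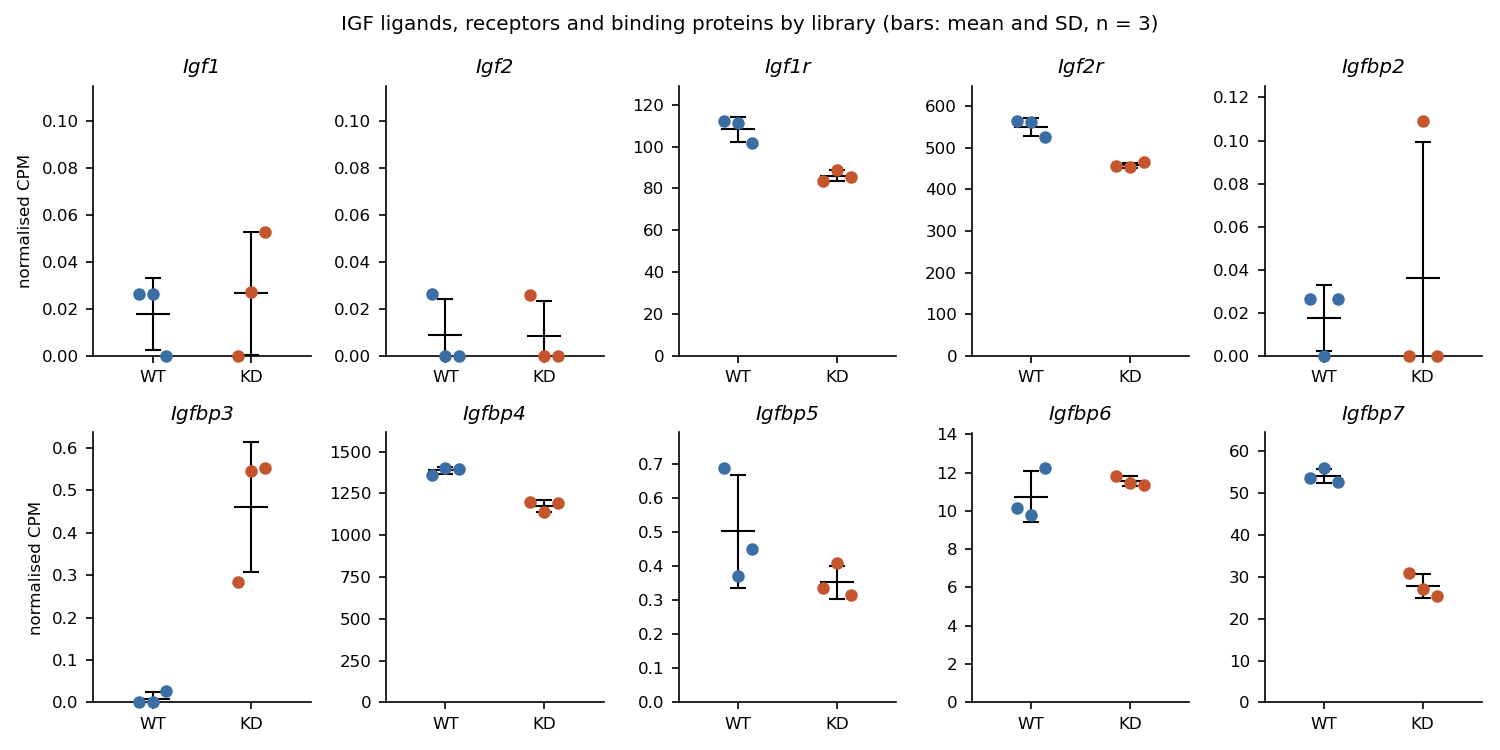
Normalised CPM (vertical axes, each starting at 0 and scaled to its gene) of the 10 members in the 3 WT (blue) and 3 LINC00115 KD (orange) libraries, with points for libraries and bars for the mean and SD. Igf1r, Igf2r, Igfbp4 and Igfbp7 lay lower in every KD library than in every WT library, Igfbp3 lay higher, and Igf1, Igf2 and Igfbp2 had at most 4 counts in any library.

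Neither hormone exceeded 3 counts in any library. Igf1, the ligand that growth hormone induces in the liver and that many tissues make locally, had 1, 1 and 0 counts in the WT libraries and 0, 1 and 2 in the KD libraries. Igf2, the fetal growth ligand, had 1, 0 and 0 counts in WT and 1, 0 and 0 in KD. These counts lie within the 3 that a count of 0 allows, so a difference between the groups was not detectable at this depth and no fold change is given. H19, the imprinted non-coding RNA transcribed next to Igf2, had 1 count over all 6 libraries.

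The IGF-1 receptor fell, by less than a fold change of 2. Igf1r was measured at 112, 111 and 102 normalised CPM in the WT libraries and at 83.6, 88.9 and 85.7 in the KD libraries. The lowest WT library, replicate 3, lay above the highest KD library, replicate 2, and the groups did not overlap. Means were 108 ± 5.83 and 86.1 ± 2.68 normalised CPM (SD, n = 3 each), that is, a log2 fold change of −0.33 (SE 0.046, edgeR adjusted p = 9.21e-08), or −20.5%. Of all genes tested, 61.6% changed by more than this in either direction. Without each library in turn, the log2 fold change lay between −0.37 and −0.30.

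The IGF-2 receptor fell by a similar proportion. Igf2r was at 563, 561 and 525 normalised CPM in WT and at 456, 453 and 465 in KD. Again WT replicate 3 was the lowest of its group and still lay above every KD library. The means of 550 ± 21.7 and 458 ± 5.99 normalised CPM (SD, n = 3 each) differed by −0.26 on the log2 scale (SE 0.033, edgeR adjusted p = 1.07e-08), or −16.7%. Airn, a non-coding RNA transcribed in mouse across the Igf2r promoter on the opposite strand, had 79 to 92 counts in WT and 70 to 96 in KD, where Igf2r had 16643 to 21228. The use of strand in counting is not given in the sources used here, so reads of the pair could not be told apart. For the balance of both receptors, the ratio of Igf1r to Igf2r counts was formed within each library. It was 0.199, 0.198 and 0.194 in WT and 0.183, 0.196 and 0.184 in KD, and the groups overlapped. Their log2 difference was −0.067 (exact permutation p = 0.2, two-sided). With 3 against 3 the smallest possible p is 0.1, so this test cannot show whether the balance changed or not.

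The groups did not overlap, with WT higher, in both receptors and in Igfbp4 and Igfbp7, 4 of the 7 members tested. Over all genes tested, the groups were apart in this direction in 37.8%.

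Igfbp4, whose product mostly holds IGFs back from their receptor and is cut by the protease PAPP-A, was the binding protein with the most reads. It was at 1361, 1404 and 1397 normalised CPM in WT and at 1197, 1137 and 1192 in KD. Every KD library lay below every WT library, and the replicates of each group were close together. The means, 1387 ± 22.8 and 1175 ± 33.3 normalised CPM (SD, n = 3 each), differed by −0.24 on the log2 scale (SE 0.029, edgeR adjusted p = 7.06e-09), or −15.3%, and 71.4% of the genes tested changed by more. With 41732 to 52996 counts per library, this value had the smallest SE of the family and was the smallest of its changes that passed the test.

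Igfbp7, a binding protein with low affinity for IGFs that is deposited in the matrix of vessels, showed the largest fall of the family. It was measured at 53.6, 56.1 and 52.6 normalised CPM in WT and at 30.9, 27.2 and 25.4 in KD. The gap between the groups was several times the range within either. Means fell from 54.1 ± 1.79 to 27.8 ± 2.82 normalised CPM (SD, n = 3 each), that is, a log2 fold change of −0.96 (95% interval −1.09 to −0.82, edgeR adjusted p = 5.34e-15), or −48.5%. Of all genes tested, 22.4% changed by more in either direction and 11.2% had a lower log2 fold change. The value lay just short of a fold change of 2, and the interval included it. Without LINC00115 KD replicate 1, the KD library with the most Igfbp7, the log2 fold change was −1.03 and the gene was called lower. It was −0.998 with upper quartile scaling and was not called there.

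Igfbp3, whose product carries most of the IGF in blood and is also known as a target of p53 and TGF-beta, was the member that rose. It had 0, 0 and 1 counts in the WT libraries and 11, 20 and 21 in the KD libraries. All KD libraries lay above all WT libraries, with KD replicate 1 the lowest of them, and the gene remained scarce, at 0.284, 0.545 and 0.553 normalised CPM in KD. Set against the library totals as scaled for the normalised CPM, 52 counts in KD and 1 in WT give a ratio of 51.9. Its exact 95% interval, from 8.92 to 2090, covers counting error only. The fitted log2 fold change was 5.25, given as a description. It varied with single libraries: it was 7.13 without WT replicate 3, which held the only WT count, and between 4.81 and 5.51 without any of the others.

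Some markers of other tissues differed in the same direction as Igfbp3 and some in the opposite one, and their part in its rise was not tested. The background for the marker counts is 37.8% of all genes tested with KD higher and no overlap, and 37.8% with WT higher. All lung and most kidney markers lay higher in KD, as given above. Of 8 endothelial markers, 2 were higher in every KD library with over 3 counts in each (Cdh5 and Cldn5) and 1 was higher in every WT library (Egfl7), and the list's sum went from 9.05 to 10.9 CPM in WT to between 65.3 and 66.6 CPM in KD, with Cdh5, the adhesion protein VE-cadherin, at 0.221 CPM on average in WT and 57.8 in KD, and Egfl7 at 9.21 and 7.15. Cldn5 had 0 counts in each WT library and 9, 9 and 18 in KD, and Kdr had 0, 0 and 1 in WT and 2, 10 and 2 in KD. Tek had at most 2 counts and Emcn 1 in any library, Pecam1 had 6 to 11 in WT and 7 to 19 in KD, and Vwf had 11 to 20 and 10 to 19. Of 8 fibroblast markers, 1 was higher in every KD library (Col6a3, with 32, 15 and 19 counts in WT and 177, 166 and 190 in KD) and 3 in every WT library, with sums of 175 to 194 CPM in WT and 81.4 to 82.9 in KD, led by Pdgfra and Dcn. The other collagen genes of the list, Col1a1, Col1a2 and Col3a1, had at most 20 counts in any library. Liver markers, checked because the liver is the main source of circulating IGF-1, summed to at most 0.371 CPM in WT and 1.37 CPM in KD, and 1 of 8 (Cyp2e1) was higher in every KD library with over 3 counts in each. Ttr, at 6, 1 and 1 counts in KD and 0 in WT, was below that minimum. Of 10 leukocyte markers, 4 were higher in every KD library (Lyz2, Cd74, S100a8 and S100a9), a share near the background. The list's sums were 71.9 to 86.0 CPM in WT and 144 to 160 CPM in KD. Of the 2 most counted, S100a8 was at 33.0 CPM on average in WT and 95.2 in KD, whereas the groups overlapped in Cd68 (42.8 and 47.2). Ptprc had 5 to 12 counts in WT and 8 to 13 in KD, and Itgam had 3 to 10 and 2 to 12. Csf1r and Adgre1 had at most 6 counts in any library, and Cd3e had 0. Whether the libraries held RNA of other cell types was not tested. If they did, a change in the number of cells of a type could not be told apart from a change in RNA per cell.

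The other binding proteins gave no difference beyond the spread. Igfbp6, which prefers IGF-2 over IGF-1, was at 10.1, 9.80 and 12.3 normalised CPM in WT and at 11.8, 11.5 and 11.4 in KD. The KD libraries fell inside the WT range, of which replicate 3 formed the upper end. Its log2 fold change was 0.11 (95% interval −0.12 to 0.33, edgeR adjusted p = 0.386), and 0.22 (adjusted p = 0.116) without WT replicate 3. Igfbp5, a binding protein of bone and of the involuting mammary gland, had 26, 14 and 17 counts in WT and 13, 15 and 12 in KD. These overlapped, and the 95% interval of the log2 fold change, −1.58 to 0.56, leaves a fall of more than a fold change of 2 possible (−0.51, edgeR adjusted p = 0.391). The value shrank to −0.21 without WT replicate 1, the highest library. Igfbp2 had 1, 0 and 1 counts in WT and 0, 4 and 0 in KD, too few for a test.

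**Figure D2:**
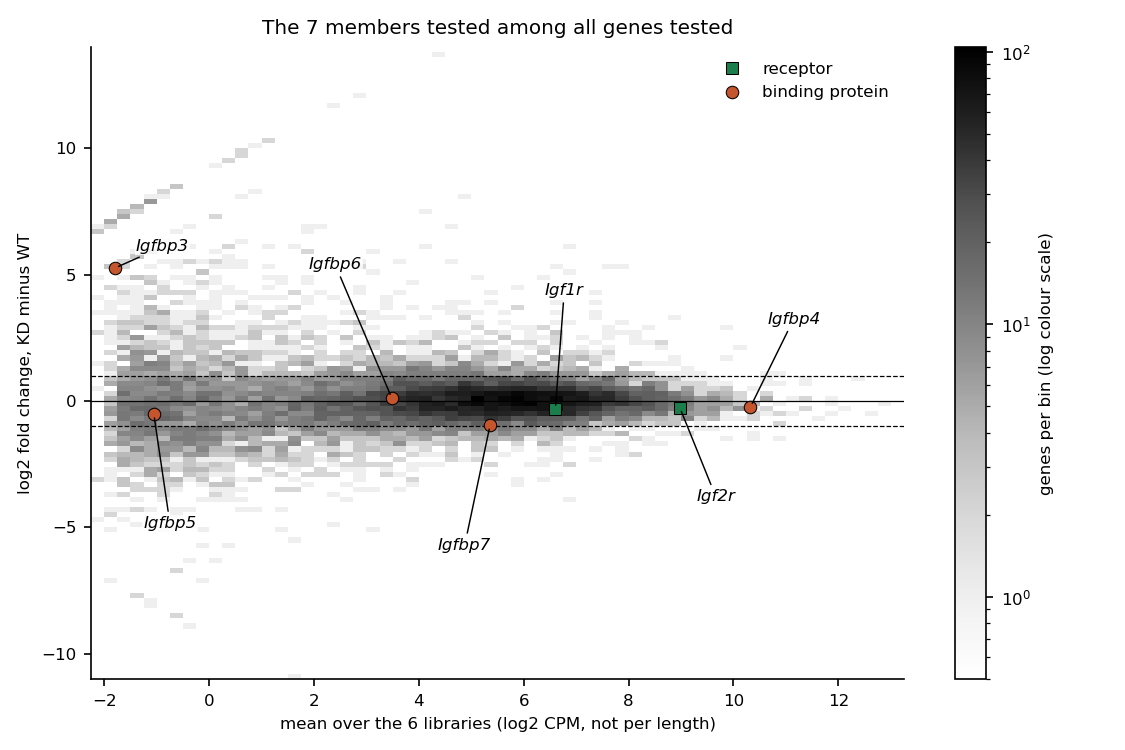
Log2 fold change (KD minus WT, vertical axis) against the mean log2 CPM over the 6 libraries (horizontal axis, not corrected for gene length), with grey bins for the number of all genes tested, squares for receptors, circles for binding proteins and dashed lines at a fold change of 2. Only Igfbp3, at 5.25 and at the low end of the counts, lies outside the dashed lines among the 7 members tested.

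Because Igfbp4 and Igfbp7 fell to different degrees, the makeup of the binding protein reads shifted. Of the reads counted on the 6 binding protein genes, Igfbp7 took 3.76%, 3.81% and 3.60% in the WT libraries and 2.50%, 2.31% and 2.07% in the KD libraries. Igfbp4 took 95.5% in each WT library and 96.5%, 96.6% and 96.9% in the KD libraries. Gene lengths were not used, so these are shares of reads and not of molecules. The ratio of Igfbp7 to Igfbp4 counts differed by −0.72 on the log2 scale, lower in 3 of 3 KD libraries than in every WT library (exact permutation p = 0.1, two-sided, the smallest that 3 against 3 allows). Summed over the 6 genes, binding protein levels went from 1453 ± 23.7 to 1215 ± 34.1 normalised CPM (SD, n = 3 each), which is 83.7% of the WT level.

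Around the family, 4 lists of pathway genes were read from the same fit. Together they named 40 genes, of which 37 were in the table and 28 were tested. Of these 28, 12 were lower and 6 higher by an adjusted p under 0.05, where 36.7% of all genes tested were lower and 36.7% higher, and 2 were called lower and 1 higher with a fold change over 2, where 9.98% of all genes tested were called lower and 10.2% higher. The genes called were Irs1, Grb14 and Stc1. Other genes of these lists are named below after their values were seen, and each that is said to fall or rise passed an adjusted p under 0.05.

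The list of related receptors and adaptors held the gene called higher. Irs1, a docking protein of the IGF-1 and insulin receptors, was at 13.3, 15.3 and 12.2 normalised CPM in WT and at 50.5, 55.5 and 52.6 in KD. All KD libraries lay far above all WT libraries. The log2 fold change was 1.96 (SE 0.075, edgeR adjusted p = 3.59e-22), a 3.89-fold increase, and 7.51% of the genes tested changed by more in either direction. Its paralog Irs2 was at 58.9 ± 2.63 normalised CPM in WT and 58.8 ± 1.16 in KD (SD, n = 3 each), with a log2 fold change of −0.0020 and an edgeR adjusted p of 0.973. The ratio of Irs1 to Irs2 counts rose from 0.218, 0.255 and 0.219 in WT to 0.843, 0.963 and 0.894 in KD, a log2 difference of 1.97 with no overlap (exact permutation p = 0.1, two-sided, the smallest possible).

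The insulin receptor gene Insr fell further than Igf1r. It was at 101, 97.0 and 96.5 normalised CPM in WT and at 55.6, 59.8 and 60.6 in KD, a log2 fold change of −0.74 (95% interval −0.84 to −0.64, edgeR adjusted p = 9.79e-16), outside the interval of Igf1r, −0.43 to −0.24. The ratio of Insr to Igf1r counts was 0.897, 0.873 and 0.951 in WT and 0.666, 0.673 and 0.707 in KD, lower in 3 of 3 KD libraries than in every WT library by −0.41 on the log2 scale (exact permutation p = 0.1, two-sided, the smallest possible). The ratios compared across the groups were 4 in number and were chosen after the values were seen. Adjusted over them, p was 0.133 for this ratio, for Irs1 to Irs2 and for Igfbp7 to Igfbp4 (exact permutation test), and 0.2 for Igf1r to Igf2r.

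Among the adaptors that act on the MAPK branch, Shc1 fell by 0.67 on the log2 scale, from 268 ± 4.88 to 168 ± 3.81 normalised CPM (SD, n = 3 each), and Gab1 fell by 0.60 at a much lower level. Grb2, their partner, had a log2 fold change of −0.074 and did not pass the test (edgeR adjusted p = 0.111). Ptpn1, the phosphatase that switches off insulin and IGF-1 receptors, rose by 0.21 on the log2 scale. Grb14, an inhibitor of the insulin receptor, was called lower (log2 fold change −1.05, edgeR adjusted p = 0.0148) on 61, 83 and 79 counts in WT and 19, 62 and 26 in KD. KD replicate 2 lay inside the WT range, and the call was lost without WT replicate 2 (adjusted p = 0.0504), without KD replicate 1 (0.0968) and without KD replicate 3 (0.0673). Over the 10 genes of this list that were tested, 5 were lower and 2 higher by adjusted p. Of all genes tested, 36.7% were lower and 36.7% higher. The list's median log2 fold change was −0.21 beside −0.0061 over all genes tested. Insrr, Irs3 and Grb10 had at most 4 counts in any library.

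**Figure D3:**
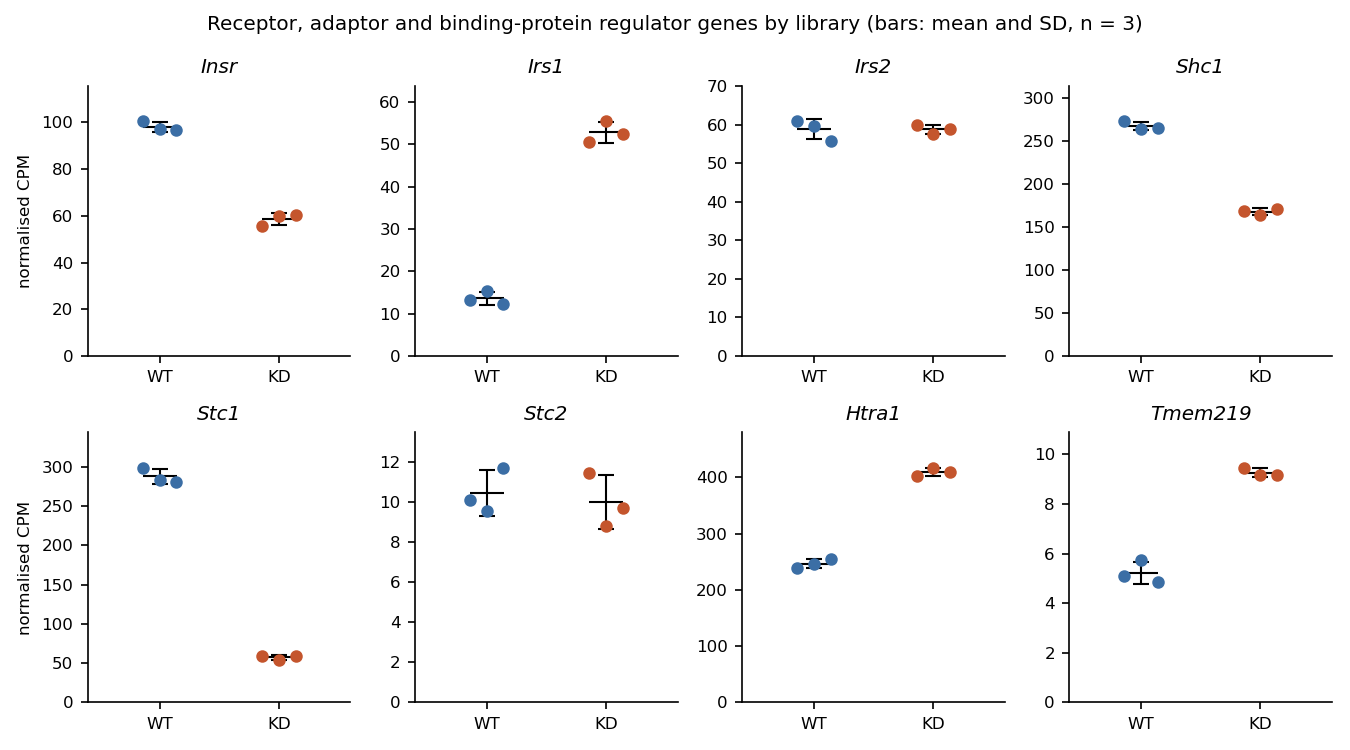
Normalised CPM (vertical axes from 0, scaled to each gene) of 8 genes that relay the IGF signal or act on the binding proteins in the 3 WT (blue) and 3 LINC00115 KD (orange) libraries, with bars for the mean and SD. Irs1, Htra1 and Tmem219 lay higher and Insr, Shc1 and Stc1 lower in every KD library, while the groups overlapped in Irs2 and Stc2.

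The genes that act on the binding proteins included the largest fall among all the IGF-related genes listed. Stc1, stanniocalcin-1, a secreted inhibitor of the IGFBP-cutting protease PAPP-A and a known HIF1 target, was at 299, 284 and 281 normalised CPM in WT and at 59.5, 54.2 and 59.5 in KD. The KD values were close to each other and far below the WT values. The log2 fold change was −2.32 (SE 0.043, edgeR adjusted p = 1.55e-31), or −80.0%, and 1.96% of the genes tested had a lower one. Stc2, the second stanniocalcin, was at 10.5 ± 1.13 and 9.99 ± 1.35 normalised CPM (SD, n = 3 each) and did not pass the test (edgeR adjusted p = 0.633). The protease itself was not found above the limit: Pappa had 1 count over all 6 libraries. Its paralog Pappa2 had 31 to 51 counts in WT and 38 to 47 in KD, with a log2 fold change of −0.026.

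Htra1, a secreted serine protease that cuts binding proteins and matrix, rose from 247 ± 7.90 to 410 ± 7.52 normalised CPM (SD, n = 3 each), that is, a log2 fold change of 0.73 (edgeR adjusted p = 1.02e-19). Tmem219, described as a receptor of IGFBP3, rose by 0.83 on the log2 scale, from 5.22 ± 0.452 to 9.26 ± 0.176 normalised CPM. Lrp1, an endocytic receptor that also takes up IGFBP3, fell by 0.11. In this list 6 of 11 genes in the table were tested, of which 2 were lower and 2 higher by adjusted p, with a median of −0.045. These counts stand beside 36.7% lower and 36.7% higher of all genes tested. Igfbp1, Igfbpl1, Adam12 and Adam28 had at most 5 counts in any library.

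**Figure D4:**
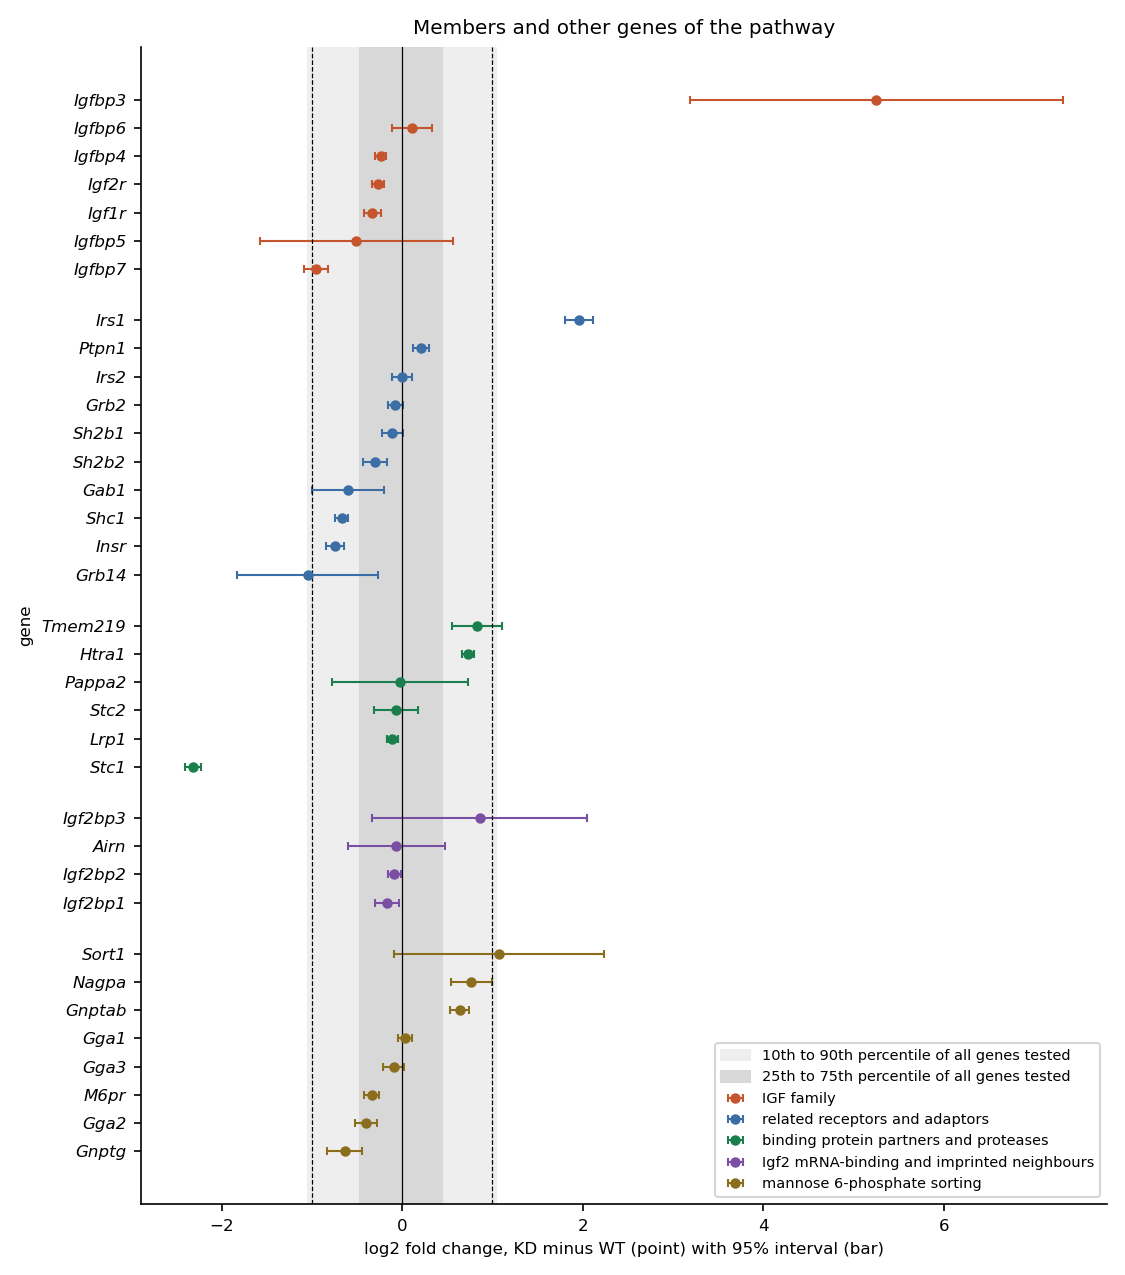
Log2 fold change (KD minus WT, horizontal axis) with its 95% interval for the 7 members tested and the 28 other genes of the pathway tested, coloured by list, over grey bands for the middle of all genes tested and dashed lines at a fold change of 2. Irs1 (1.96) and Stc1 (−2.32) lie with their whole interval outside the dashed lines. Igfbp3 (5.25) is drawn as a description only, because it passed the low-count filter only through the KD libraries. Igf1r, Igf2r, Igfbp4 and Igfbp6 lie inside the band from the 25th to the 75th percentile (−0.47 to 0.44).

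As a sorting receptor, Igf2r works with the smaller mannose 6-phosphate receptor M6pr and with the enzymes that add the sugar tag. M6pr fell by 0.34 on the log2 scale, from 159 ± 6.94 to 125 ± 2.62 normalised CPM (SD, n = 3 each), beside −0.26 for Igf2r. The subunits of the tagging enzyme went apart: Gnptab, which holds the catalytic subunits, rose by 0.64 and Gnptg, the gamma subunit, fell by 0.64 on the log2 scale. Nagpa, which uncovers the tag, rose by 0.77. Of the adaptors that carry both receptors out of the Golgi, Gga2 fell by 0.40, whereas Gga1 and Gga3 had log2 fold changes of 0.030 and −0.094 and did not pass the test (edgeR adjusted p = 0.459 and 0.149). In this list all 8 genes were tested, with 3 lower and 2 higher by adjusted p, where 36.7% of all genes tested were lower and 36.7% higher. With a fold change over 2, 0 were called, where 9.98% of all genes tested were called lower and 10.2% higher. The list's median was −0.032.

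The direction of every member tested was the same under 13 alternatives of scaling, filter, test, replicate block and left-out library, except that Igfbp3 could not be tested when at least 10 counts were required in every sample. The fall of Igf1r ranged from −0.37 to −0.30, that of Igf2r from −0.30 to −0.25, that of Igfbp4 from −0.28 to −0.21 and that of Igfbp7 from −1.03 to −0.89, each with an adjusted p under the threshold throughout.

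**Figure D5:**
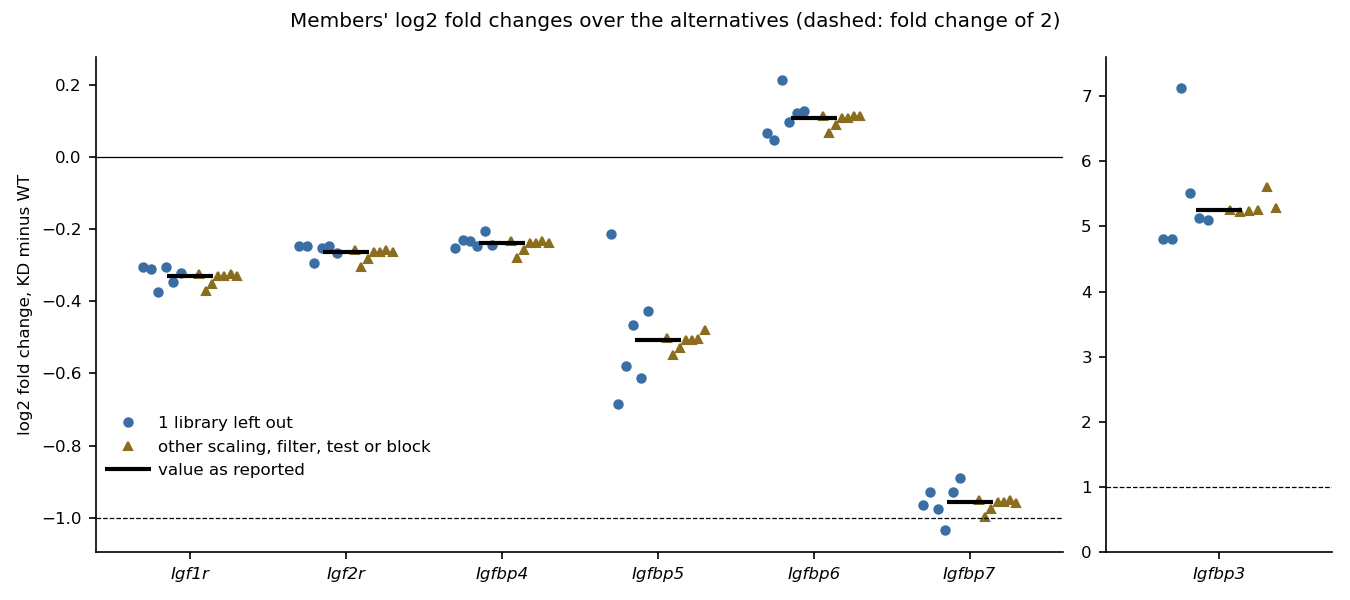
Log2 fold change (KD minus WT, vertical axis) of the 7 members tested as reported (black bar), with 1 library left out (circles) and under the other alternatives (triangles), with Igfbp3 on an axis of its own and dashed lines at a fold change of 2. Igfbp7 crosses the line of a fold change of 2 in 1 fit, at −1.03, and Igfbp3 spreads most, from 4.81 to 7.13.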

How the data were processed

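RNA-seq libraries of 3 LINC00115 KD and 3 WT samples were analysed. The authors trimmed adapters, mapped reads with HISAT2 and deposited 1 table of raw counts per gene, without normalization. The genome is hg19 in the methods and hg38 in the submitters' processing notes, which also name featureCounts and DESeq2. Annotation and strand setting are not given in the sources used here, so reads of overlapping genes may be split in unknown ways. Gene symbols are in mouse style, which neither human genome accounts for. No mouse genome was used here, and no positions or sequences are given.

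Columns were assigned by the sample descriptions, and 0 columns were left unused. The counts entered edgeR 4.0.16 (R 4.3.3): filterByExpr (minimum count 10, minimum total 15), TMM scaling, and the quasi-likelihood test on the group alone, with Benjamini-Hochberg adjustment over 13497 genes. Genes were called at an adjusted p under 0.05 and a fold change over 2. Normalised CPM use TMM-scaled totals, and standard errors are the log2 fold change over the root of F. Ratios within libraries were compared by exact permutation. Between libraries of 1 group, chi-square per degree of freedom was 3.88 to 7.80, so none was a copy of another.

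The members, the 4 pathway lists and the marker lists were chosen with earlier results of these data known. Named are all members, the pathway genes called, the 2 most counted genes of a marker list where that list is described, and others said to be chosen after their values were seen, which include the single markers. The pipeline was tested on simulated data. Alternatives were other scalings, filters, DESeq2 1.42.0, a replicate block and each library left out. Igfals, Irs4 and Igf2os were not analysed here.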

Additional observations from a re-analysis of the deposited data

How the results depend on the processing

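The members lower by an adjusted p under 0.05 numbered 4 in all 13 alternatives. The 1 member higher was Igfbp3, whose p is not used as support because the gene passed the filter only through the KD libraries. It was counted in all alternatives but the filter of at least 10 counts in every sample. That filter removed Igfbp3 and left 0 higher, also of members called. Members called lower ranged from 0 to 1 with each library left out, and the 1 was Igfbp7 without LINC00115 KD replicate 1. Related receptors and adaptors called lower ranged from 0 to 1 in the same fits (Grb14). Over the whole table, 1347 genes were called lower and 1381 higher. These became 4960 and 4952 without a threshold on the fold change. Under the stricter filter of 10 counts, 919 genes were called lower and 903 higher. Without a low-count filter, 1570 were called lower and 1793 higher. With each library left out there were 1257 to 1392 lower genes and 1405 to 1488 higher ones. Correlations of deviations between same-numbered libraries lay between −0.021 and 0.042, and 1 of 3 WT libraries correlated best with its own number. Those between libraries of different number lay between −0.024 and 0.039. Correlations this small cannot show whether the replicate numbers pair the libraries. With the replicate number as a block, 1316 genes were called lower and 1360 higher, 1 member was called higher and 0 lower, and no call of a member or listed pathway gene changed. Scaling shifted the median log2 fold change of all genes by less than 0.1. Depth limits Igf1, Igf2, Igfbp2, Igfbp3 and Igfbp5, each with at most 26 counts in any library.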

Other observations

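Of the genes whose proteins bind the messenger RNA of Igf2, Igf2bp1 and Igf2bp2 were well counted although Igf2 itself was not. Igf2bp2, a regulator of messenger RNA stability, had 8523 to 9557 counts per library and a log2 fold change of −0.088 (edgeR adjusted p = 0.0269). Igf2bp1, which is mainly known from embryonic and tumour cells, had 1272 to 1545 counts and a log2 fold change of −0.17 (edgeR adjusted p = 0.0196). Both were lower in the KD libraries by less than a fold change of 2. Igf2bp3 varied as much within the groups as between them, with 13, 5 and 21 counts in WT and 33, 32 and 6 in KD, and did not pass the test (edgeR adjusted p = 0.186). Of the 4 genes tested in this list, which also holds H19 and Airn, 2 were lower and 0 higher by adjusted p. Of all genes tested, 36.7% were lower and 36.7% higher. The list's median log2 fold change was −0.075.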
